A study of Mus musculus with 4 samples.

Results

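The cells described here are neutrophils with few granule-protein transcripts, labelled mature neutrophils, in single-cell RNA libraries from the kidneys of 4 mice. They were chosen from their transcripts, counted as unique molecular identifiers (UMIs). A barcode needed 500 UMIs, 300 genes and a mitochondrial share under 50%. It then needed 50 or more UMIs of S100a8 and S100a9 per 10000 and 2 or more detected genes of Csf3r, Cxcr2, Retnlg and Mmp9. The granule genes Camp, Ngp and Ltf had to sum to less than 5 per 10000. Cells with more than 1 of C1qa, C1qb and C1qc, with any Cd3e or Pecam1, or with 10 or more Umod or Gpx3 UMIs per 10000 were left out. These rules kept 4576 of 40939 cells, which are called gated neutrophils below. The 16 genes of the gate chose the cells, so their levels are given as a description, without a test.

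All 4 mice were wild type and had contrast-induced acute kidney injury (CIAKI), an injury of the kidney that follows an iodinated X-ray contrast agent. They form 1 group, and no uninjured mice were analysed here, so nothing below measures an effect of contrast. The agent, its dose, the time of collection, and the age, sex and strain of the mice are not stated in the labels. The labels assign all 4 libraries to 1 batch.

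Neutrophils are short-lived granulocytes made in bone marrow. During their development they express granule proteins in successive waves, primary granules first (Mpo, Elane), then secondary granules (Ltf, Camp, Ngp, Lcn2) and last gelatinase granules (Mmp8, Mmp9). A mature cell that leaves the marrow has largely shut these genes off, carries the chemokine receptor CXCR2 and is led into tissue by CXCL1 and CXCL2. In injured kidney, neutrophils are known for interleukin-1 and chemokine secretion, for reactive oxygen from the NADPH oxidase and for extracellular traps.

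Mice 1 to 4 gave 1544, 2758, 137 and 137 gated neutrophils, with medians of 4849.5, 5114.5, 4839 and 1686 UMIs per cell. The summed UMIs of these cells ranged from 269061 in mouse 4 to 16924088 in mouse 2 and set the precision: 3 UMIs stand for 0.291, 0.177, 3.97 and 11.2 CPM (counts scaled to library totals) in mice 1 to 4. All levels below are CPM, a gene's UMIs relative to all UMIs of the gated cells of that mouse, and are compared between mice or classes, not between genes. Each mouse gave 1 library, and intervals cover counting error only. Over the 2608 genes at 50 CPM or more, the log2 levels of mice 1 and 2 correlated with a Pearson r of 0.983, and those of the other pairs with 0.435 to 0.707; these are descriptions across genes, which are not replicates. Of these genes, 11.8% were more than 2-fold above all other mice in mouse 3 and 6.79% in mouse 4, against 0% in mouse 1 and 0.0383% in mouse 2. Mouse 4 shared 1 cell barcode in all with the other libraries, which shared 23 to 54 with each other. Ribosomal protein genes took 4.43% of the UMIs in its gated cells and 0.823% to 1.40% in the others. What separates the libraries was not tested, and with 1 library per mouse it cannot be told apart from the mice.

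Gated neutrophils made up 21.8% of cells in mouse 1 (95% exact binomial interval 20.8 to 22.8) and 31.1% in mouse 2 (30.2 to 32.1). They made up 1.06% in mouse 3 (0.892 to 1.25) and 1.13% in mouse 4 (0.952 to 1.34). The mean was 13.8% ± 15.1 (SD, n = 4), so the spread between mice was as large as the mean. It was 8.0% without mouse 2, 8.63% without cells that held markers of another cell type, and 20.9% when the gate's exclusions were dropped. Without the marker-holding cells mice 1 to 4 had 10.9%, 22.1%, 0.511% and 1.08%. Without the exclusions they had 40%, 40.8%, 1.57% and 1.35%, so that mice 1 and 2 no longer differed clearly. The shares thus moved with the gate by more than the binomial intervals. Mouse 3 differed in granule stage as well. In it, 237 cells had 50 or more granule-gene UMIs per 10000 and passed the S100 limit and the exclusions, with no condition on the 4 neutrophil genes (granule-high), 168 met the gate with 5 to 50 (granule-intermediate), and 137 were in the mature gate. Of the cells in these 3 classes, the mature gate thus held 25.3% in mouse 3 (exact binomial interval 21.7 to 29.2) and 91.3%, 92.4% and 73.3% in mice 1, 2 and 4. These shares describe barcodes recovered after dissociation. Close values lay on either side of the limits of the gate: the highest sum of Camp, Ngp and Ltf inside it was 4.99 per 10000 in mouse 1, the lowest outside it 5.05, and the median of its cells 0 in every mouse. For S100a8 and S100a9 the values on either side of the limit were 48.8 and 50.02 in mouse 1, and the medians of the gated cells 359, 416, 219 and 1154.

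**Figure D1:**
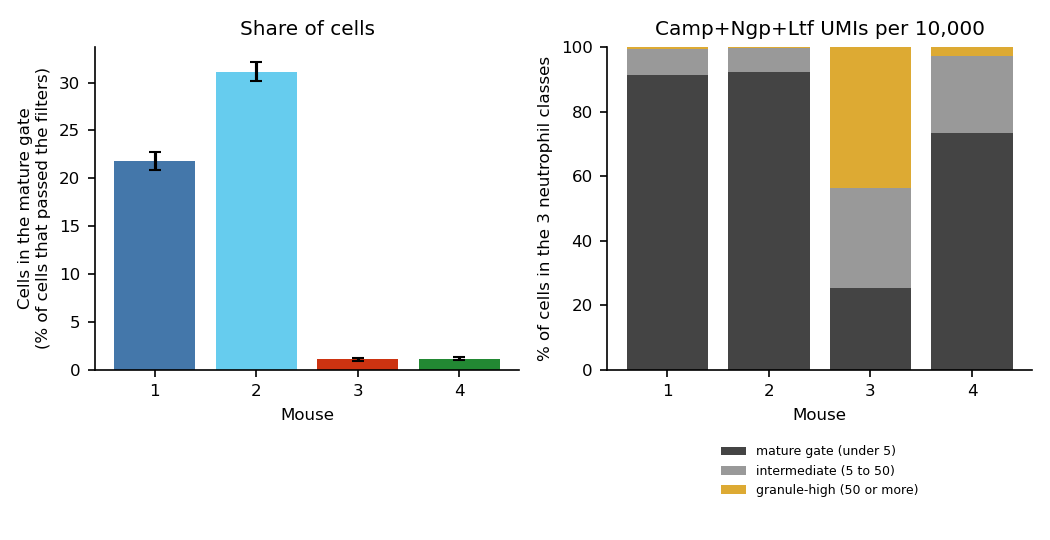
Left, percent of cells that passed the filters and lay in the mature gate in each mouse, with 95% exact binomial intervals. Right, percent of the mature, granule-intermediate and granule-high classes among the cells of all 3. Mice 1 and 2 had 21.8% and 31.1% of cells in the gate, and in mouse 3 the granule-high class was the largest at 43.7%.

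The marker genes were those of neutrophils in all 4 mice, and in mouse 3 those of a mature neutrophil were low. The calprotectin subunit S100a9 was at 26977, 31505, 18925 and 73192 CPM in mice 1 to 4. Cxcr2, the receptor for CXCL1 and CXCL2, was at 1629, 2099.8, 159 and 587 and was detected in 97.0%, 97.8%, 43.1% and 68.6% of gated cells. Retnlg, a secreted resistin-like protein of mature neutrophils, was at 11350.3, 11519, 812 and 39757. Mouse 3 was the lowest of the 4 for each of these genes. The receptor for the growth factor G-CSF, Csf3r, was also lowest there, with 2813, 2523, 580.0 and 1193. Outside the gate genes, Mmp8, neutrophil collagenase, was at 2848, 3204, 249 and 1483, and Hdc, histidine decarboxylase, at 3175, 2967, 929.5 and 1966. Both were again lowest in mouse 3. By contrast G0s2, an inhibitor of fat breakdown, was highest there, at 999, 858, 1704 and 1289.7, and Trem1, an amplifying receptor of inflammation, was at 1004, 893, 959 and 517. In T cells, which lack it, Cxcr2 was detected in 9.84%, 10.6%, 0.512% and 0.132% of cells, at median depths of 5591, 6426, 5604 and 1966 UMIs. Other gate genes were found in more of these T cells. For S100a9 the shares were 52.5%, 82.0%, 21.0% and 1.98%, and for Retnlg 28.4%, 41.6%, 0.767% and 1.19%. The T cells here and below had to lie below the S100 limit of the gate, so their shares are not an unselected background. Cxcr2 is 1 of the genes that admitted cells to the gate, so its higher share in gated cells is part of the rule. In mouse 3 the name mature rests mainly on the low granule genes.

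Transcripts of early development were scarce. The primary granule genes Mpo, Elane, Prtn3, Ctsg and Ms4a3 together reached 6.97, 6.15, 1.32 and 11.2 CPM, and none of the 5 reached 50 in any mean over mice. The 8 genes of the cell cycle list, such as Mki67 and Top2a, summed to 51.9, 54.7, 66.2 and 89.2, against 668, 499.5, 459 and 606 in T cells. Of the secondary granule genes outside the gate, Lcn2, the iron-scavenging kidney injury marker NGAL, was at 3693, 3324, 30322 and 6240.2. It was highest in mouse 3, in other cells as well: endothelial cells held 286, 431, 7935 and 1448 CPM and T cells 70.8, 168, 889 and 807. Chil3, a chitinase-like protein, was instead lowest in mouse 3, with 1344, 1080.2, 239.7 and 780.5. 

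Most marker lists of other cell types summed to low levels in the gate, but outside mouse 4 their genes were found in many of its cells. The 6 proximal tubule markers summed to 257, 158, 367 and 81.8 CPM and the 8 macrophage markers to 172, 119, 195 and 119. The 6 endothelial markers summed to 31.0, 56.1, 96.7 and 59.5. T cell markers stayed between 5.30 and 63.2, with Cd3e at 0 by the gate, and of the eosinophil, basophil and mast cell markers Mcpt8, Fcer1a, Prg2 and Epx were at 0. Cells with 2 or more genes of 1 such list made up 50.2%, 29.1%, 51.8% and 5.11% of the gate. Each comparison below was also fitted without them, and the number or names of the named calls that this changed are given there. Mouse 4 held RNA of another tubular set, chosen after the data were seen (Epcam, Cryab, Wfdc2, Krt8, Krt18, Cdh16 and Magi2), at 1721 CPM against 79.9 to 95.2 in the others.

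The gated neutrophils carried abundant interleukin-1 beta RNA in every mouse. Il1b, the pro-form of this fever cytokine, was at 16152, 15631, 18799 and 6125 CPM and was detected in 99.5%, 99.7%, 100% and 97.8% of cells. Mice 1 to 3 lay close together and mouse 4 was lowest. In T cells of mice 1 and 2 a UMI of Il1b was found in 44.3% and 51.0% of cells, and after each cell was thinned to 1000 UMIs in 15.3% and 14.7%, against 99.3% and 99.1% of gated neutrophils. The decoy receptor Il1r2, which binds interleukin-1 without signalling, was at 5417, 5100.0, 1706 and 1750.5. The receptor antagonist Il1rn was at 126, 134, 1519 and 55.7, and so highest in mouse 3. The signalling receptor Il1r1 was nearly absent, with 5.52, 1.95, 3.97 and 0.

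Other cytokines separated mouse 3 from the rest. Tnf was at 77.4, 39.0, 683 and 308 CPM. Il10, an anti-inflammatory cytokine, was at 0.968, 1.54, 264 and 7.43 and Il1a at 10.7, 7.09, 219.8 and 33.5. These 3 genes were highest in mouse 3, and Il10 and Il1a were low elsewhere. Oncostatin M, Osm, was instead higher in mice 1 and 2, at 1207, 1240.1, 723 and 565, as was the TNF family member Tnfsf14, at 125, 175, 7.94 and 48.3. Csf1, the macrophage growth factor, varied less, at 473, 381, 453 and 182. Il6 was at or near 0, with 0.581, 0.0591, 2.65 and 0. Of the 8 cytokines at 50 or more CPM, 4 were over 2-fold above every other mouse in mouse 3, against 11.8% of all genes at that level.

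The chemokine genes also varied between mice. Cxcl2, which attracts further neutrophils through CXCR2, was at 5506, 6351, 19158 and 16922 CPM, high in mice 3 and 4. Its relative Cxcl3 was at 65.5, 162, 939 and 92.9 and was detected in 13.7%, 22%, 53.3% and 13.1% of gated cells, against 0% to 1.53% of T cells. Cxcl1 was at 13.6, 13.8, 103 and 66.9. All 3 ligands of CXCR2 were thus highest in mouse 3. Ccl3, which attracts monocytes, neutrophils and T cells, was at 243, 134, 4276 and 294, and Ccl4, a related chemokine, at 377, 292, 4526 and 814. Thinned to 1000 UMIs, Ccl3 was detected in 12.4%, 8.06%, 82.4% and 14.5% of gated cells and 8.20%, 3.27%, 5.4% and 9.83% of T cells, so that only mouse 3 stood far above the T cells of its own library. The corresponding shares for Ccl4 were 12.7%, 10.6%, 64.0% and 13.7% of gated cells and 32.8%, 19.6%, 21.1% and 23.2% of T cells, which express this gene themselves. Ccl6 took the opposite course, lowest in mouse 3, with 915, 915, 248 and 1687.

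Pairs of genes were then compared cell by cell after thinning, as a description. Ccl4 was detected in 24.7%, 28.4%, 69.6% and 36.8% of the Ccl3-positive cells and in 11%, 9.05%, 37.5% and 9.82% of the Ccl3-negative cells of mice 1 to 4. The exact binomial intervals of the pair overlapped in mouse 4 only. The same shares for Rsad2 among Isg15-positive and Isg15-negative cells were 12.1%, 19.2%, 85.0% and 7.14% against 8.39%, 9.57%, 72.4% and 1.71%, and here the intervals were apart in mouse 2 only.

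**Figure D2:**
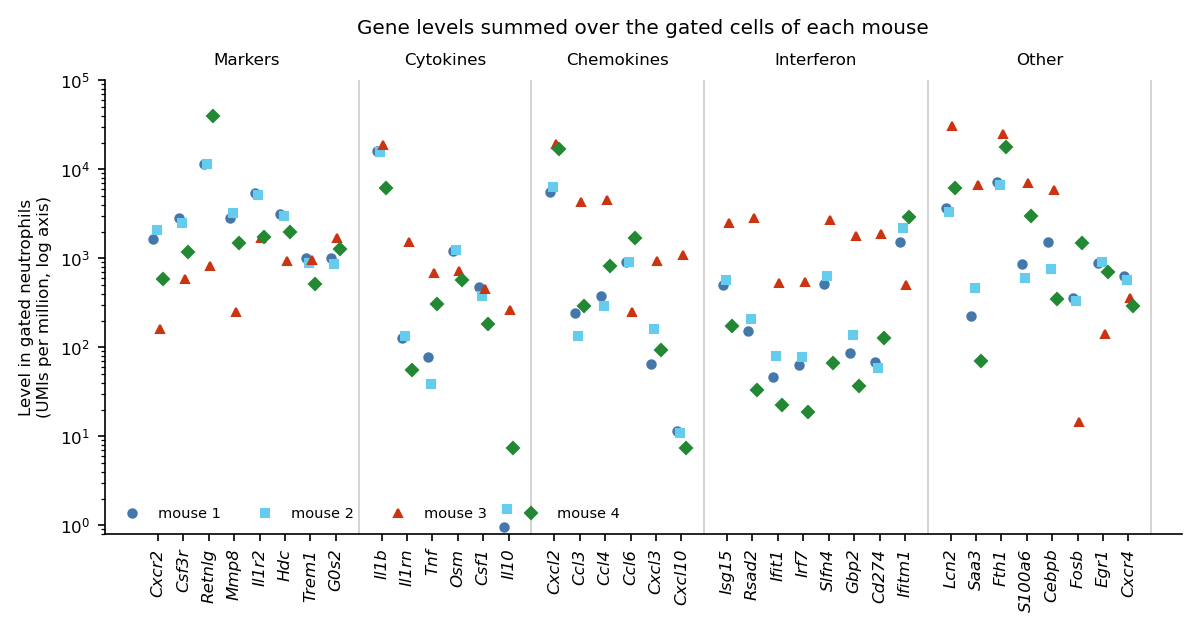
Level of named genes, in CPM on a log axis, summed over the gated neutrophils of each mouse; 1 symbol per mouse, and values under 0.8 are not drawn. Mice 1 and 2 overlie each other for most genes. Mouse 3 is lowest for Cxcr2, Csf3r, Retnlg and Mmp8 and highest for Ccl3, Ccl4, Il1rn, Isg15, Rsad2, Gbp2 and Saa3.

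Receptors for chemoattractants and adhesion molecules were measured in all 4 mice. C5ar1, the receptor of the complement fragment C5a, was at 1231, 965, 1520.1 and 1108 CPM, and the formyl peptide receptor Fpr1 at 207, 202, 547 and 409. Ccr1, a receptor of CCL3, was at 1104, 1240.3, 463 and 372, higher in mice 1 and 2. Cxcr4, the receptor that retains and recalls neutrophils to bone marrow and rises with age in blood, was at 640.1, 568, 363 and 289.9. Mouse 4 was lowest. The beta-2 integrin chain Itgam was at 294, 260.2, 943 and 159.8, the adhesion molecule Icam1 at 44.6, 29.8, 428 and 44.6 and Ceacam1 at 32.6, 28.0, 556 and 11.2; these 3 were highest in mouse 3. Siglecf, known from a tissue-resident neutrophil state, was at 5.04, 4.67, 0 and 11.2 and was detected in 0% to 3.11% of cells. Its 0 UMIs in mouse 3 allow up to 3.97 CPM.

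Genes for effector functions follow. The 6 subunits of the NADPH oxidase, which makes superoxide, summed to 3391, 2740.2, 3167 and 2616 CPM. The p47 subunit Ncf1 was at 604, 465, 813 and 334 and the membrane subunit Cyba at 587, 475, 560.1 and 1286. The 8 inflammasome genes summed to 998, 917, 968 and 970.0, and their sensor Nlrp3 was at 618, 511, 334 and 584. The 5 genes of the extracellular trap list summed to 963, 939, 309.9 and 1776, lowest in mouse 3. Only 1 of these genes reached a mean of 50 CPM, so the sum rests mainly on that gene. Padi4, the enzyme that citrullinates histones in trap formation, was at 59.4, 32.5, 35.8 and 29.7 and was not lowest in mouse 3. The NF-kB inhibitor Nfkbia was at 2961, 2715, 6715 and 3449, highest in mouse 3. Fc receptor Fcgr4 was at 185, 204, 1199.7 and 74.3, also highest there, and the C-type lectin Clec4e at 885, 812, 659 and 2394, highest in mouse 4. Of the 13 immediate early genes, 3 (23.1%) were over 2-fold below every other mouse in mouse 3, against 13.3% of all genes at 50 CPM or more. Fos was at 7317, 8090.3, 1582 and 5058 and Egr1 at 880.4, 909.7, 142 and 699. The survival factor Mcl1 was at 2684, 2786, 1532 and 2512, and Alox5ap, which passes arachidonic acid to 5-lipoxygenase, at 2111, 2202, 927 and 2906; both were lowest in mouse 3.

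Many interferon-stimulated genes were highest in mouse 3. Type I interferon acts through the factor ISGF3, which binds the interferon-stimulated response element (ISRE) in promoters. Of the 22 interferon-stimulated genes at 50 CPM or more, 17 were over 2-fold above every other mouse in mouse 3, where 11.8% of all genes at that level were. All 9 measured genes of the guanylate-binding and IFN-gamma list were. Isg15, a ubiquitin-like modifier, was at 504, 574, 2488 and 175 CPM. Rsad2, viperin, which blocks viral RNA synthesis, was at 151, 209, 2872 and 33.5. Ifit3, which helps bind viral RNA, was at 10.4, 24.9, 906 and 0, where the 0 of mouse 4 allows up to 11.2. All 3 were highest in mouse 3 and lowest in mouse 4. Gbp2, a GTPase that attacks the vacuoles of pathogens, was at 87.2, 136, 1765 and 37.2, and Cd274, the T cell inhibitor PD-L1, at 68.0, 59.3, 1874 and 126. Cxcl10, which attracts T cells, was at 11.5, 11, 1099 and 7.43. Ifitm1, counted in the same list, did not follow, with 1527, 2182, 499 and 2944.

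The difference was not limited to neutrophils. The interferon-stimulated list summed to 5459.9, 6930.0, 20181 and 5014 CPM in gated neutrophils, 1538, 1482, 7778 and 1043 in T cells and 2571, 2832, 13264 and 5596 in endothelial cells of the same libraries. The guanylate-binding list summed to 479.5, 637, 8124 and 420.0, 1065, 986, 3564 and 420.1 and 665, 634, 5362 and 295. In each of the 3 cell classes mouse 3 was highest for both lists. The chemokine list was at 7161, 7902, 30406 and 19951 in gated neutrophils and at 85.0, 95, 2984 and 211 in endothelial cells. In T cells it was at 1596, 769, 2039 and 1506, where mice 1, 3 and 4 lay closer together. Thinned to 1000 UMIs, Rsad2 was detected in 82.4% of gated neutrophils, 73.7% of endothelial cells and 22.6% of T cells of mouse 3.

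**Figure D3:**
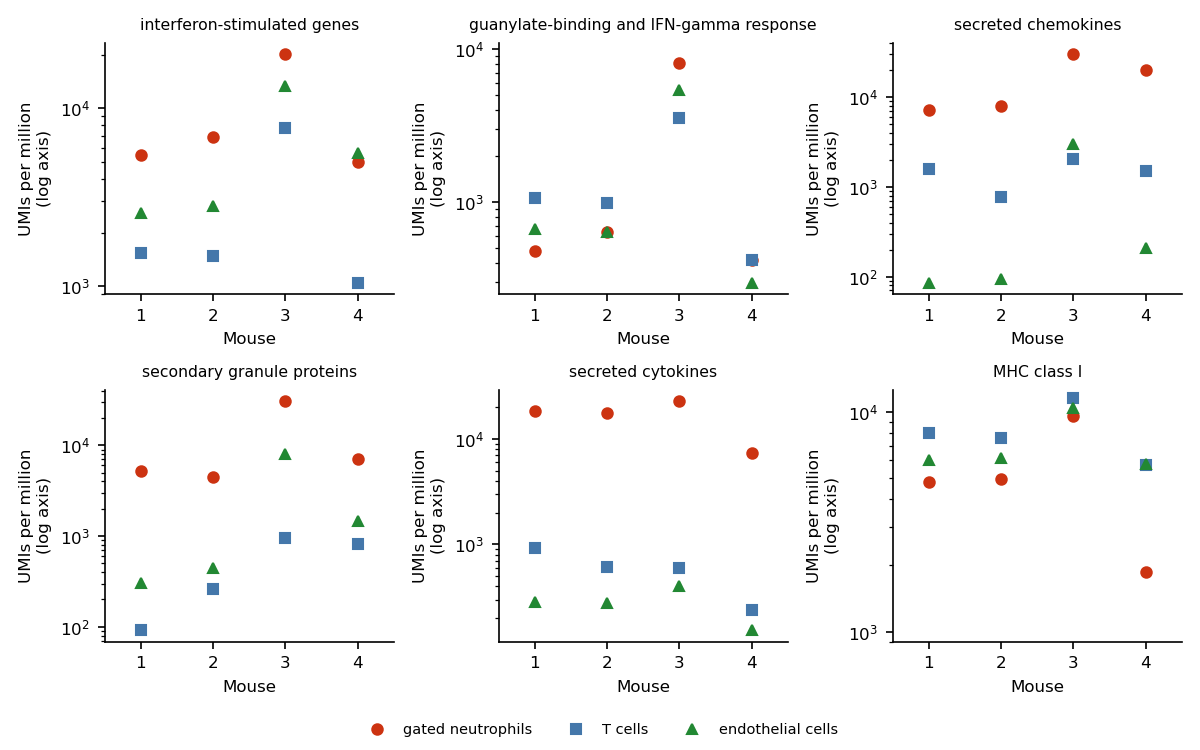
Summed level of 6 gene lists, in CPM on a log axis, in gated neutrophils, T cells and endothelial cells of mice 1 to 4; 1 point per mouse and class. The 3 classes of mouse 3 lie above those of the other mice for both interferon lists, whereas secreted cytokines and chemokines are highest in gated neutrophils in every mouse.

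The promoters of 4 of these genes, and of Cxcl2, are shown because these genes were all highest in mouse 3. The sequences are the 250 bases before the gene start from RefSeq (GRCm38.p6), written 5′ to 3′ on the strand of the gene, in lower case. Capitals in the interferon genes mark every match to GAAA, any 2 bases and GAAA on either strand, a core of the ISRE, and overlapping matches are joined. Capitals in Cxcl2 mark matches to GGG, any 2 bases and TTTCC on either strand, a form of the NF-kB site. Isg15 (chr4:156200819-156201068, minus strand) has 3 overlapping matches, Ifit3 (chr19:34583279-34583528, plus strand) has 2, and Rsad2 (chr12:26456453-26456702, minus strand) and Gbp2 (chr3:142620413-142620662, plus strand) have 1 each. Cxcl2 (chr5:90903649-90903898, plus strand) has 2 separate matches.
Isg15: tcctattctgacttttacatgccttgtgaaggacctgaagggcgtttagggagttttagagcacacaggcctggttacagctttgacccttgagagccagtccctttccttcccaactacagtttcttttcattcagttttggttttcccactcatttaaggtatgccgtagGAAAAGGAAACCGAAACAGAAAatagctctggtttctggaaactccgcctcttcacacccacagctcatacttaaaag
Ifit3: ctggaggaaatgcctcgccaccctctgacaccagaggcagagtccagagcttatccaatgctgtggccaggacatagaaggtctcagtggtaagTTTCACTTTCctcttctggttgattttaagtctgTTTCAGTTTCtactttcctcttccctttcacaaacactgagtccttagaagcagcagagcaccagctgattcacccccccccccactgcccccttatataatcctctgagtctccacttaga
Rsad2: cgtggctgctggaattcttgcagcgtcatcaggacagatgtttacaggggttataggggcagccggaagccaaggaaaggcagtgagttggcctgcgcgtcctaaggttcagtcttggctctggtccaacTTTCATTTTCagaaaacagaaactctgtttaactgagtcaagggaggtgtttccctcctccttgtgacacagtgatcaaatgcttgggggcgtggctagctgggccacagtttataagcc
Gbp2: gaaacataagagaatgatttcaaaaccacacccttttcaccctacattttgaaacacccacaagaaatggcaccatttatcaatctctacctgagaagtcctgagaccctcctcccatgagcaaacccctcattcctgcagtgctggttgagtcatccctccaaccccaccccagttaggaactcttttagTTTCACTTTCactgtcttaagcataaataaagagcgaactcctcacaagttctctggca
Cxcl2: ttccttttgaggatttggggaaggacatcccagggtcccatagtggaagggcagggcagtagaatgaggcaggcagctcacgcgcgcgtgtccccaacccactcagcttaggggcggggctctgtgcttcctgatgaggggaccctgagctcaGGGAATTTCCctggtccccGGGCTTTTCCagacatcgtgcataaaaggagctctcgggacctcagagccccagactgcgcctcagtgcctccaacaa
The ISRE core was found in 8 of the 19 interferon-stimulated genes with an entry in the table (of 24) and in 7 of the 10 guanylate-binding genes, against 2.98% of all 32851 promoters of that length. The NF-kB form was found in 4 of 7 chemokine genes with an entry and in 1.41% of all promoters. A list gene counted when any of its promoters matched, whereas the shares of all count each promoter, so they are not like measures. A match is a description of these letters only.

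A small number of further genes differed between mice by wide margins. The acute-phase protein Saa3 was at 227, 459.9, 6674 and 70.6 CPM, and T cells of mouse 3 held 3638 against 4.21 to 17.9 in the other mice. In mouse 3 Saa3 was at 2766 in the gate without cells that held markers of another cell type, below its T cells, and at 10509 with the stricter gate. The kinase gene Ikbke was at 8.72, 5.14, 743 and 11.2, the DNA-sensing protein gene Ifi204 at 78.0, 116, 1394 and 11.2 and coagulation factor F10 at 30.0, 23.2, 686 and 11.2. These 4 were highest in mouse 3. Ikbke was not raised in T cells of mouse 3, where it was at 38.5 against 15.2 to 61.9 in the others. In mouse 4 the stress protein gene Nupr1 was highest, at 6.58, 8.21, 109.9 and 598, as was the small heat shock protein gene Cryab, at 3.10, 16.0, 7.94 and 814, a member of the tubular set above.

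Mature-gate cells were next compared with granule-intermediate neutrophils, which met the same gate with 5 to 50 UMIs of Camp, Ngp and Ltf per 10000. The intended comparison with granule-high cells was not tested because only mouse 3 had 20 such cells; this replacement was chosen after the cell counts were known. All genes of the gate were left out. The classes came from the same mice and were compared over 4 mice, with the mouse as a block (edgeR's quasi-likelihood test, Benjamini-Hochberg adjustment). Of 6533 genes tested, 161 (2.46%) were higher in the mature gate and 170 (2.6%) lower, 5.07% in all, at an adjusted p under 0.05. Median depth was 1686 to 5114.5 UMIs in the mature gate and 2266 to 6081 in the intermediate class.

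Genes of late granules and of the oxidase were lower in the mature gate. In the gelatinase and secretory list 6 of 7 tested genes were lower and none higher, with a median log2 change of -0.79 against 0.04 over all genes. Mmp8 was at 2848, 3204, 249 and 1483 CPM in the mature gate and 4676, 5285, 873 and 2107 in the intermediate class, a log2 fold change of -0.95 ± 0.14 (SE, adjusted p = 0.000313). It was lower in 4 of 4 mice. Cd177, a surface protein stored in secondary granules, was at 32.7, 36.6, 10.6 and 33.5 and 152, 118, 49.3 and 109.8, a log2 fold change of -2.0 ± 0.17 (adjusted p = 1.68e-06). Of the 3 secondary granule genes tested Cd177 alone passed, and Lcn2 and Chil3 did not; the classes were themselves cut by granule genes. Padi4 was at 59.4, 32.5, 35.8 and 29.7 and 151, 80.3, 47.6 and 69.9, a log2 fold change of -1.22 ± 0.18 (adjusted p = 0.000359; 2.57e-09 to 1.00 over the alternatives). Of the 6 oxidase subunits Cyba, Cybb and Rac2 were lower, at -0.51, -0.88 and -0.46 on the log2 scale. The formyl peptide receptors Fpr1 and Fpr2 were lower, at -0.79 and -0.49. Cyba, Cybb, Fpr1 and Fpr2 are among the 6 lower genes of the gelatinase and secretory list above, beside Mmp8 and Mmp25, and are not further calls. Further genes that were lower in every mouse included Adpgk, an ADP-dependent glucokinase, at -2.26, Ifitm6 at -1.50 and Ly6c2 at -1.32.

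Some cytokine and chemokine genes were higher in the mature gate, as were 2 of the 13 immediate early genes, Atf3 and Klf6. Atf3, a stress-induced repressor of inflammation, was at 754, 649.6, 426 and 807 CPM in the mature gate and 310.4, 304, 204 and 409 in the intermediate class, a log2 fold change of 1.10 ± 0.11 (adjusted p = 1.27e-05). Csf1 was at 473, 381, 453 and 182 and 286, 235, 304 and 69.9, a log2 fold change of 0.69 ± 0.12 (adjusted p = 0.00227). Cxcr4 was at 640.1, 568, 363 and 289.9 and 459, 336, 292 and 169.7, a log2 fold change of 0.52 ± 0.12 (adjusted p = 0.0141). All 3 genes were higher in 4 of 4 mice. Of 11 cytokines tested, 3 were higher (Il1b, Il1rn and Csf1) and none lower. Il1b was near the threshold, with a log2 fold change of 0.42 ± 0.12 (adjusted p = 0.0455; 0.000285 to 1.00 over the alternatives, and 0.0632 with the size factors of DESeq2). Of 9 chemokines, Ccl3, Cxcl1 and Cxcl3 were higher, by 0.80, 1.55 and 0.73. Without cells that held markers of another cell type Cxcl3 (0.58) and Saa3 (0.68) no longer passed. The prostaglandin synthase Ptgs2 was higher by 0.68, Toll-like receptor gene Tlr4 by 0.58 and Ppp1r15a and Cdkn1a by 1.06 and 1.05.

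Most lists held few called genes between granule stages, where 5.07% of all genes tested passed. None of the 10 guanylate-binding genes and 1 of the 22 interferon-stimulated genes, Ifitm3, passed the test, and Ifitm3 was at -0.51. No gene of the adhesion, growth factor receptor, hypoxia and glycolysis or MHC class I lists passed. In lists of this size such counts lie near the share of all genes and do not set these lists apart. The MHC class II genes H2-Aa and H2-Eb1, which neutrophils hardly express, were higher in the mature gate at 1.19 and 1.23, from levels of 64.4, 68.4, 22.5 and 37.2 and 51.7, 58.9, 33.1 and 44.6 CPM in the gate. Macrophage markers were present in the gate at 119 to 195 CPM, as given above, and without the cells that held markers of another cell type neither gene passed the filter on low counts, so that fit gives no value for them. The mean level in the gate went from 48.1 to 20.4 CPM for H2-Aa and from 47.1 to 22 CPM for H2-Eb1 without those cells. Calls depended on single mice. Leaving out mouse 1 gave 33 higher and 48 lower genes, leaving out mouse 2 gave 18 and 34, mouse 4 gave 70 and 113, and mouse 3 gave 319 and 387. Mmp8, Cd177, Atf3 and Adpgk passed in each of these 4 fits. Without the mouse as a block the same edgeR test called 0 genes, with 31 higher and 38 lower at an unadjusted p under 0.05, and DESeq2 with the block called 88 and 127.

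**Figure D4:**
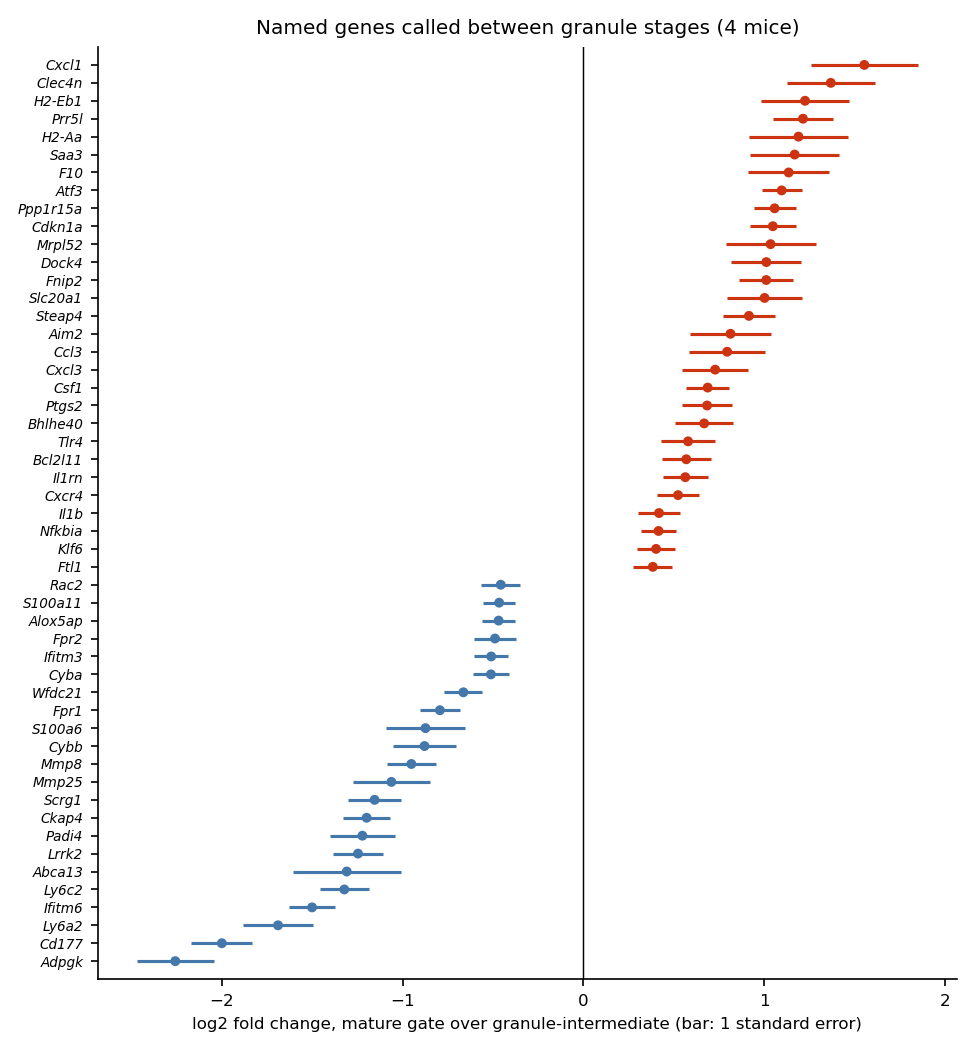
Log2 fold change of named genes that passed the test between the mature gate and granule-intermediate neutrophils, with bars of 1 standard error (4 mice). Cxcl1, Clec4n and Atf3 lie among the genes higher in the mature gate, and Adpgk, Cd177 and Ly6a2 among the genes lower in it.

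In mouse 3 alone the granule-high class and Ly6c2-high monocytes could be set beside the mature gate, as levels with exact Poisson intervals and no test. Mmp8 was at 249 CPM in the mature gate (215 to 287) and 2174 in granule-high cells (2114 to 2237). Chil3 was at 239.7 and 5642. Lcn2 was at 30322 and 27776, and Isg15 was at 2488 and 2204. Mmp8 and Chil3 thus lay further apart by stage within mouse 3 than Isg15 and Lcn2. Cxcl2 was at 19158 in the mature gate, 8578 in granule-high cells and 162 in monocytes. Il1b was at 18799, 8848 and 629.7. Rsad2 was at 2872, 1916 and 896. Ccl2, the monocyte attractant, ran the other way, at 23.8, 39.1 and 294.

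Against C1q macrophages, the resident-type phagocytes of the kidney, gated neutrophils differed in 53.2% of the genes tested. This comparison replaced that with monocytes after the cell counts were known. Macrophages had 2 or more of C1qa, C1qb and C1qc and lay below the S100 limit of the neutrophil gate. These C1q genes and all other genes of both gates were left out. Of 12177 genes tested with the same model over 4 mice, 2867 (23.5%) were higher in gated neutrophils and 3610 (29.6%) lower. Without mouse 2 these were 1817 and 1808, and without mouse 1 there were 2348 lower. Without cells that held markers of another cell type 1 of 174 named calls, Tnfsf13b at -1.06, was lost.

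Secreted factors divided between both phagocytes. Il1b was at 16152, 15631, 18799 and 6125 CPM in gated neutrophils and 2574, 1347, 543 and 718 in macrophages, a log2 fold change of 4.31 ± 0.60 (adjusted p = 0.000293). Cxcl2 was at 5506, 6351, 19158 and 16922 and 1382, 264, 485 and 997, a log2 fold change of 4.77 ± 0.67 (adjusted p = 0.000310). Csf1 was at 473, 381, 453 and 182 and 83.9, 9.38, 37.7 and 5.76, a log2 fold change of 4.81 ± 0.50 (adjusted p = 6.31e-05). These 3 were higher in neutrophils in 4 of 4 mice. Cxcl16, a membrane-bound chemokine, was at 9.68, 6.38, 13.2 and 11.2 and 446, 475, 403 and 556, a log2 fold change of -4.83 ± 0.37 (adjusted p = 2.75e-05), and Ccl2 was lower, at -3.39. Ccl3 did not pass the test over mice (log2 fold change -0.28 ± 0.90, adjusted p = 0.816): it was at 243, 134, 4276 and 294 in gated neutrophils and 1118, 360.0, 409 and 1251 in macrophages, so that only in mouse 3 were neutrophils above macrophages. Tnf showed the same order, with 77.4, 39.0, 683 and 308 and 199.8, 103, 206 and 339.7 (adjusted p = 0.577). Ccl4 also exceeded its macrophage level in mouse 3 alone.

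Receptors and activation genes leaned to neutrophils. Of 9 chemoattractant receptors tested, 8 were higher and 1 lower, with a median log2 change of 2.61 against -0.08 over all genes. Fpr1 was at 207, 202, 547 and 409 CPM and 20.4, 13.1, 14.9 and 2.88 in macrophages, a log2 fold change of 5.52 ± 0.55. Of the 13 immediate early genes 11 were higher and none lower, and of the 13 NF-kB feedback genes 10 were higher and none lower. Of 17 genes of hypoxia and glycolysis 9 were higher and 1 lower, among them the glucose transporter Slc2a3, higher by 3.85, while the hexokinase Hk2 was lower, at -0.93. Of the interferon-stimulated genes 14 of 24 were higher and 2 lower. Isg15 was higher by 2.38, in 3 of 4 mice, and Rsad2 by 1.71, whereas Ifit3 did not pass (log2 fold change -0.18 ± 0.75, adjusted p = 0.860).

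Antigen presentation and proliferation leaned to macrophages. All 5 MHC class II genes were lower in gated neutrophils, with Cd74, the invariant chain, at 166, 158, 303 and 74.3 against 10038, 11619, 6494 and 28084 CPM (log2 fold change -5.40 ± 0.77). None of the 8 MHC class I genes passed in either direction. Of 6 cell cycle genes tested 5 were lower. In the NADPH oxidase list 4 of 6 genes were higher, Ncf1 by 2.51, and Cybb, the catalytic subunit, was lower, at -3.22. Beyond the lists, the largest differences upward were Stfa2l1 and Cstdc4, relatives of the stefin protease inhibitors, at 7.82 and 7.76, and Ly6g, the classical neutrophil surface marker, at 7.41. The largest downward was Mmp12, macrophage elastase, at -7.86, beside the mannose receptor Mrc1 at -7.14.

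**Figure D5:**
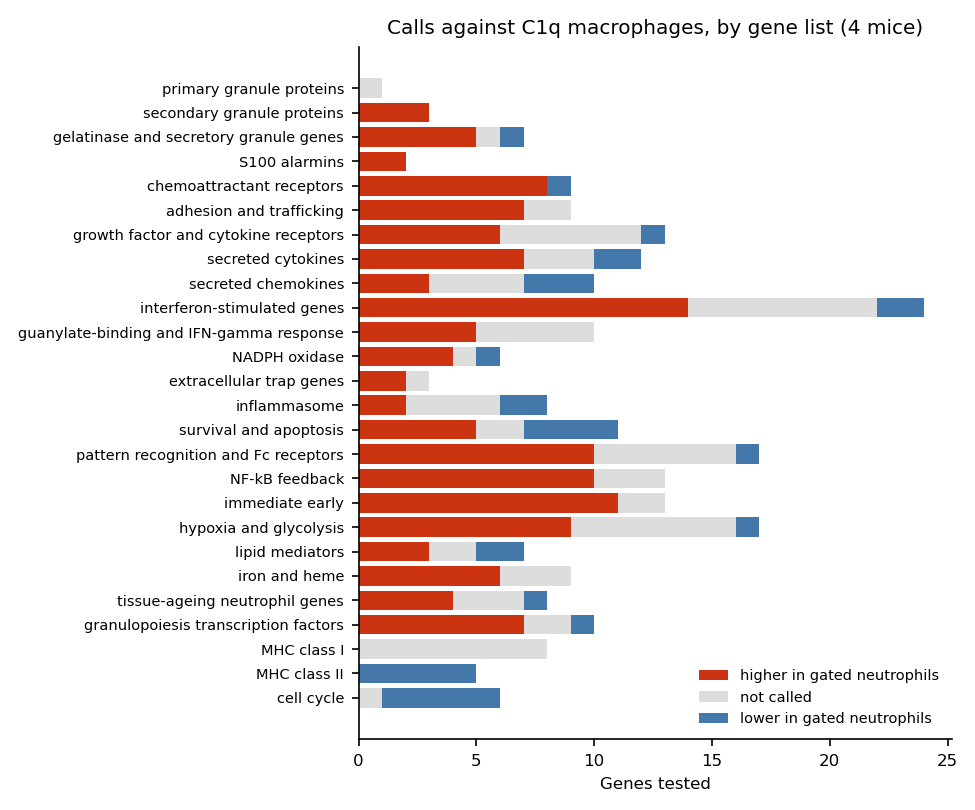
Number of genes of each list that were higher, lower or not called in gated neutrophils against C1q macrophages (4 mice). Chemoattractant receptors (8 of 9 higher) and immediate early genes (11 of 13 higher) lean to neutrophils, and MHC class II (5 of 5 lower) and cell cycle genes (5 of 6 lower) to macrophages.

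Within the gate, the upper and lower tertiles of each mouse by the summed UMIs of the 24 interferon-stimulated genes, after thinning to 1000 UMIs, were compared. These tertiles are ranges of a score and not cell types, and the 24 genes were left out. The list stood at 7610.1, 9845, 27631 and 9787 CPM in the upper tertile and 3468, 4413, 12821 and 1618 in the lower. Even the lower tertile of mouse 3 thus lay above the upper tertiles of the other mice. Of 7683 genes tested over 4 mice, 107 (1.39%) were higher in the upper tertile and 216 (2.81%) lower, 4.2% in all.

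Other interferon-induced genes were higher in the same cells. Genes that vary between cells with the ranking genes are higher in the upper tertile by the way it was chosen. The calls below therefore show which genes vary together and are not separate support for an interferon state. Of the 10 guanylate-binding and IFN-gamma genes 8 were higher and none lower, with a median log2 change of 0.77 against 0.00 over all genes. Ifih1, the RNA sensor MDA5, was at 99.8, 98.7, 372 and 50.3 CPM in the upper tertile and 42.4, 51.0, 148 and 0 in the lower, a log2 fold change of 1.18 ± 0.12 (adjusted p = 1.19e-09). Xaf1, a pro-apoptotic interferon target, was at 40.6, 53.2, 537 and 25.2 and 12.6, 24.0, 242 and 0, a log2 fold change of 1.36 ± 0.15 (adjusted p = 1.15e-08). Cxcl10 was at 13.9, 22.8, 1418 and 25.2 and 7.54, 3.09, 551 and 0, a log2 fold change of 1.66 ± 0.17 (adjusted p = 5.17e-09; 1.32e-20 to 1.00 over the alternatives, and 0.114 with a mitochondrial limit of 20%). These 3 were higher in 4 of 4 mice. The GTPase Gbp5 was higher in 3 of 4 mice, at 15.6, 17.5, 1096 and 0 and 8.48, 5.22, 408 and 0, with a log2 fold change of 1.47 ± 0.17. Ifi47 was higher by 1.56 and the RNA sensor Rigi by 1.04. Of the MHC class I list Tap1 and Psmb8 were higher, by 0.52 and 0.37. 

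Genes lower in the upper tertile included transcripts of other cells. The tubular genes Magi2, Cryab, Epcam and Wfdc2 were lower, at -3.83, -3.53, -2.19 and -1.55, and 4 of 4 MHC class II genes tested were lower. Without cells that held markers of another cell type, 35 genes were higher and 8 lower, and the MHC class II genes H2-Eb1 and Cd74 turned to 0.42 and 0.16. Of the 27 named calls that could still be tested in that fit, 13 stayed, 12 no longer passed and 2 changed sign. In that fit Ifih1 was higher by 1.15, Xaf1 by 1.19 and Ifi47 by 1.27. The numbers also rested on single mice. Leaving out mouse 1 gave 3 higher and 7 lower genes, mouse 2 gave 2 and 9, and mouse 3 gave 190 and 414. Without the mouse as a block edgeR called 0 genes, with 3 higher and 188 lower at an unadjusted p under 0.05, and DESeq2 with the block called 22 and 55.

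Neutrophils with 2 or more UMIs of Ccl3 and Ccl4 after thinning were compared with those that had none, over mice 1, 2 and 4; mouse 3 was left out because 15 of its cells were negative and 112 positive. Of 7341 genes tested, 39 (0.531%) were higher in positive cells and 29 (0.395%) lower, 0.926% in all. Tnf was at 136, 67.8 and 498 CPM in positive cells and 63.6, 35.6 and 274 in negative cells of these mice, a log2 fold change of 0.93 ± 0.15 (adjusted p = 2.26e-07). It was higher in 3 of 3 mice, and by 1.17 without cells that held markers of another type. H2-Aa was higher by 1.61 and Cd74 by 1.13, and without those cells they stood at -0.09 and 0.24 and did not pass. Only 7 genes were then higher and 2 lower. Of the 15 named calls that could still be tested in that fit, 1 stayed, 11 no longer passed and 3 changed sign. Leaving out mouse 1 gave 5 and 3 calls, mouse 2 gave 1 and 4, and mouse 4 gave 136 and 96. Without the mouse as a block edgeR called 0 genes, with 25 higher and 38 lower at an unadjusted p under 0.05, and DESeq2 with the block called 2 and 1. No gene of the interferon-stimulated, chemoattractant receptor or NF-kB feedback lists passed in this comparison. With 0.926% of all genes called, lists of this size would hold few or no calls, so this does not set them apart.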

How the data were processed

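The deposited values were UMI counts per gene and barcode, 1 matrix for each of 4 mice, made with Cell Ranger 9.0.1 per the file headers and the submitters' processing notes. The notes also name Seurat 4.1.1, without a role. For genome build and annotation, neither labels nor headers give a name. The gate of the report was applied to these counts, and no doublet caller was run: the gate leaves out cells with markers of other types, and 2 alternatives leave out the deepest 10% of cells and cells with 2 or more markers of another type. UMIs were summed per mouse and class, from classes with 20 or more cells, and tested with edgeR 4.0.16 (R 4.3.3; TMM scaling, filterByExpr, quasi-likelihood test, Benjamini-Hochberg adjustment over all genes tested) with the mouse as a block. The block rests on both classes coming from the same animal, and the deviations of its 2 classes from the class means correlated with a Pearson r of 0.305 to 0.779 across genes. DESeq2 1.42.0 was an alternative. Python 3.11.15 with numpy 2.4.6, scipy 1.17.1 and pandas 2.3.3 did the rest. On simulated data edgeR recovered 24%, 16%, 9% and 18% of 2-fold and 89%, 82%, 55% and 80% of 4-fold changes in the granule-intermediate, macrophage, chemokine and interferon comparisons. Unchanged genes made up 3.42%, 1.01%, 0% and 5.77% of the calls there. The simulation gave every gene the same fixed dispersion, not that of these mice, so these shares are not the power in the real data. That the mice are separate animals rests on the labels.

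The members and the gene lists were chosen with earlier results of these data known. Genes were named from 26 lists of 250 genes, the 20 with the highest mean level, the 10 largest changes in each direction of a comparison that passed at 50 CPM and went 1 way in every mouse, and the 10 most variable between mice. Genes of a gate or of a split were left out of its test. The comparisons with granule-intermediate cells and C1q macrophages were added after the cell counts were seen. T cells had Cd3e and 1 or more of Cd3d, Cd3g and Trac, endothelial cells 2 or more of Pecam1, Kdr, Cdh5 and Emcn and no Ptprc. T cells, endothelial cells and macrophages also had to lie below the S100 limit of the neutrophil gate. Barcodes with much neutrophil RNA were thus left out of these classes. Their shares and levels of neutrophil transcripts are therefore not an unselected background and may be too low for one. Libraries shared 0 to 54 barcodes in pairs, of which 3 were gated in both libraries of mice 1 and 2. A few genes are not reported here.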

Additional observations from a re-analysis of the deposited data

Results flagged for a closer look

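Of 27 quantities with 4 values each, 7 had 1 mouse whose gap to the nearest other mouse exceeded Dixon's critical share of the range at the 95% level. For a single normally distributed quantity chance gives such a gap in about 1 of 20. These 27 came from the same 4 mice and some lists share genes. The 7 can therefore not be set against that rate. In mouse 3, 3 sums were high: interferon-stimulated genes at 20181 CPM (5014 to 6930.0 in the others), guanylate-binding and IFN-gamma genes at 8124 (419.98 to 637), and NF-kB feedback genes at 14992 (10619 to 11164). The gap of the NF-kB feedback sum lay largely in 1 gene, Nfkbia, whose levels are given above. Of the 11 NF-kB feedback genes at 50 CPM or more, 2 (18.2%) were over 2-fold above every other mouse in mouse 3, against 11.8% of all genes. The secondary granule sum was also highest there, at 30684 (4511 to 7091), but Lcn2 gave 30322 of it, Chil3 was lowest in mouse 3 and Camp, Ngp and Ltf are gate genes. The lipid mediator genes were lowest there, at 1370.5 (2916 to 3204), and most of this sum was Alox5ap, whose levels are given above. In mouse 4 tissue-ageing neutrophil genes were lowest, at 1293 (1984 to 2119). The S100 alarmin sum of mouse 4, 128246 (33705 to 48459), is a description only, since the gate genes S100a8 and S100a9 gave 46859 and 73192 of it. Both mice had 137 gated cells, and library and mouse cannot be told apart.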

How the results depend on the processing

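The comparisons with granule-high cells and Ly6c2-high monocytes were not run, because only mouse 3 had 20 such cells. Counts are given as higher and lower genes in the first class. Without the replicate block there were 0 and 0 calls (main 161 and 170) against granule-intermediate cells, 1848 and 2394 (2867 and 3610) against macrophages, 0 and 0 (39 and 29) in the chemokine split and 0 and 0 (107 and 216) in the interferon split. DESeq2 gave 88 higher against granule-intermediate cells, 2 and 1 in the chemokine split and 22 and 55 in the interferon split. Cells thinned to 1000 UMIs gave 70 and 104 against intermediate cells and 1701 and 1997 against macrophages. Leaving out each mouse in turn gave 18 to 319 and 34 to 387 against intermediate cells, 1817 to 3750 and 1808 to 4364 against macrophages, 1 to 136 and 3 to 96 in the chemokine split, and 2 to 190 and 7 to 414 in the interferon split. In the chemokine split the stricter gate gave 69 and 50, leaving out the deepest 10% of cells 5 and 1, the other cut 142 and 80, leaving out cells with other cell type markers 7 and 2, no filter on low counts 109 lower, and a mitochondrial limit of 20% 14 lower. In the interferon split these were 59 and 49, 59 and 32, 35 and 8 (other markers), 418 lower (no filter), and 51 and 119 (20%). The inflammasome list, at 963, moved to 999 with the stricter gate, 1006 when thinned, 1022 without cells with other markers and 1063 with totals that leave out ribosomal and mitochondrial genes. With those totals the survival list moved from 5614 to 6159, and without cells with other markers the MHC class II list moved from 302 to 184.

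The named calls followed under the alternatives numbered 177 against macrophages, 51 against granule-intermediate cells, 40 in the interferon split and 19 in the chemokine split. Pooled over the comparisons, most values thus came from the macrophage comparison, and the totals do not describe the less stable splits. Of the pooled values that could be tested, 3617 kept direction and call, 549 lost the call and 17 changed sign. In the chemokine split these were H2-Aa (-0.79 with the 20% limit, -0.32 without the deepest cells, -0.090 without cells with other markers), H2-Eb1 (-0.82 and -0.53 for the first 2), Cd74 (-0.13 and -0.22), H2-Ab1 (-0.33 with the 20% limit), Plac8 (-0.067 without cells with other markers), Rpsa (-0.36 without the deepest cells, -0.14 without cells with other markers), Cstb (-0.076 without the block) and Rbpms (0.0090 without the deepest cells). In the interferon split they were H2-Eb1 (0.42 without cells with other markers) and Cd74 (0.10 without the block, 0.088 with DESeq2, 0.16 without cells with other markers). The causes were not tested. Among levels of single genes, those of H2-Aa, H2-Ab1, H2-Eb1, Hk2, Cxcl16, Ier5, Klf6, Tubb5, Vegfa and Dcstamp moved by more than the spread between mice under 1 or more alternatives. Depth limits mouse 4 most, where 3 UMIs stand for 11.2 CPM.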
